A study of Mus musculus with 20 samples.

Results

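The RNA of control mouse germline stem cells (GSCs) was set against 3 histone marks counted over a window at each gene in cells of the same control genotype. The genes are all 25067 genes of the RNA table, ranked by their mean log2 RPM, a read count divided by its library's mapped total, in the 2 control libraries, and joined by symbol to the chromatin table. All 25067 had a window there, of 25965 windows in all, and no knockout library was used. GSCs are cultured cells derived from spermatogonia, and here they grew on fibroblast feeder cells. The control cells were of genotype Kmt2bF/F and carried Rosa26-CreERT2, a tamoxifen-inducible Cre at a ubiquitously active locus. They received ethanol in place of 4-OHT and were harvested 6 days later. The Kmt2b alleles in these cells are floxed, and the cells received no 4-OHT. RNA, H3K4me3, H3K27me3 and their input DNA came from 2 libraries each, from 2 cell lines per the series text. H3K9me3 came from 2 libraries with 2 inputs of their own, made with a ThruPLEX kit in place of NEBNext, and the harvest day and treatment behind these 4 libraries are not given. All p-values below come from 2 libraries of a kind. The fit draws the spread of each window toward a trend over all windows, so a standard error (SE) is not that window's own spread alone.

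H3K4me3 is laid down at the start sites of active and of many silent genes, mostly within CpG islands, by the SET1 and MLL enzymes, of which Kmt2b is a member. H3K27me3 is the mark of Polycomb repressive complex PRC2 and covers developmental genes that a cell keeps silent. A promoter with both marks is called bivalent. H3K9me3 marks constitutively silent chromatin, including repeats and large clustered gene families. In spermatogonial stem cells, genes of the germ line are active, while many of the embryonic regulators are held in the bivalent state.

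The depth was 38458010 and 44372019 mapped reads for RNA, from 10360152 to 18035122 for the H3K4me3, H3K27me3 and NEBNext input libraries, and from 41099186 to 63537169 for H3K9me3 and its inputs. A read was worth 0.026 and 0.0225 RPM in the RNA libraries. The log2 RPM values of the 2 RNA libraries correlated across the 13930 genes of at least 1 RPM with a Pearson coefficient of 0.997, a description over genes of the same 2 libraries. RPM was not divided by transcript length, so an order of genes by RPM mixes the length of a transcript with its amount. Germ cell markers were present. Ddx4, the germline RNA helicase, had 418 and 400 RPM of RNA, Zbtb16, a stem cell transcription factor, 137 and 146 RPM, and Gfra1, the receptor subunit for GDNF, 31.4 and 32.3 RPM. Nanos2, an RNA-binding regulator of stem cell maintenance, had 3.72 and 4.08 RPM. Markers of feeder fibroblasts were also present, with 24 of 30 at or above 1 RPM, against 55.6% of all genes. Their summed level was 657 and 698 RPM, against 2420 and 2339 RPM over the 11 germ cell markers. The highest feeder markers were Fn1 (fibronectin), with 177 and 184 RPM, and Col1a1 (type I collagen), with 131 and 142 RPM. Of the Sertoli and Leydig markers, 6 of 16 reached 1 RPM, with a summed level of 26.2 and 25.5 RPM. Wt1 was the highest of them, with 14.4 and 12.9 RPM, and Hsd3b1 and Cyp17a1 had no read. Of the blood and macrophage markers, 3 of 13 reached 1 RPM, with a summed level of 7.05 and 7.57 RPM. Cd68 was the highest of them, with 2.73 and 3.09 RPM, and Hbb-b1 and Ptprc had no read. In these bulk libraries fewer cells of a type and less RNA per cell cannot be told apart, and the part of feeder cells in each value below was not tested.

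The following promoters show the range of states described below, and were chosen after their values were seen. They are RefSeq sequences of build GRCm38.p6, the 250 bases before the annotated start, with every CG in capitals. They are the promoters of Ddx4 (chr13:112652311-112652560, minus strand), T (chr17:8434173-8434422, plus strand), Nanos2 (chr7:18987274-18987523, plus strand), Prm2 (chr16:10792106-10792355, minus strand) and Olfr401 (chr11:74121041-74121290, plus strand).
Ddx4: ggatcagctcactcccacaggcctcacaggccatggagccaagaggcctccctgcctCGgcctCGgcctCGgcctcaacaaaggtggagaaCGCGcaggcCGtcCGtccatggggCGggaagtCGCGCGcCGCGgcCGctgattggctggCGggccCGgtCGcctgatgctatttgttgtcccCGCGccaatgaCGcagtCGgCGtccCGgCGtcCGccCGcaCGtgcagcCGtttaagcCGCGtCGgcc
T: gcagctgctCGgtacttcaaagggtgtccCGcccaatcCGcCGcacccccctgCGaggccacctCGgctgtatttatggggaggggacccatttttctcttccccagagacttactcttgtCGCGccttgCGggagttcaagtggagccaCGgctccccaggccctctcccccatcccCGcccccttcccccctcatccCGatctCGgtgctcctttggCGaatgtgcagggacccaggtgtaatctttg
Nanos2: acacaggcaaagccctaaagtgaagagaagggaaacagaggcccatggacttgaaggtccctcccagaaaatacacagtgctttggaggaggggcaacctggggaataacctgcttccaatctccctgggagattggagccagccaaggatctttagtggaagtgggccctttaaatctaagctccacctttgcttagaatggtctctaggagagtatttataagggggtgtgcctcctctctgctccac
Prm2: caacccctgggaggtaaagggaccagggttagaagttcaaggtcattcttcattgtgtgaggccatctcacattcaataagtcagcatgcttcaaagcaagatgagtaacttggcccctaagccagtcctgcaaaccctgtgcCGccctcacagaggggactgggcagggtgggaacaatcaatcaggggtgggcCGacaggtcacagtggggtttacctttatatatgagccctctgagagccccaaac
Olfr401: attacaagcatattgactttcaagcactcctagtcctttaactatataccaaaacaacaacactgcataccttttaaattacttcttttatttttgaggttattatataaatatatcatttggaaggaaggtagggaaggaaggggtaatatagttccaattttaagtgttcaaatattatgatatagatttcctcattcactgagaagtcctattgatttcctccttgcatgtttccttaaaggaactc

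Ddx4 stood for an expressed gene with H3K4me3, and its 250 bases hold 31 CG. Its window had 11.9 and 16.6 RPM in the H3K4me3 libraries, against 0.18 and 0.42 RPM in the inputs. H3K4me3 was higher by 4.20 on the log2(RPM + 0.5) scale (SE 0.29, limma adjusted p = 3.3e-48). T, the mesoderm factor brachyury, had 0.052 and 0.0676 RPM of RNA and 14 CG. Its window carried both marks, with 12.3 and 14.4 RPM of H3K4me3 and 9.99 and 5.22 RPM of H3K27me3, against 0.55 and 0.62 RPM in the inputs. The log2 differences were 3.67 (SE 0.27, limma adjusted p = 7.3e-42) and 2.84 (SE 0.42, limma adjusted p = 1.4e-09). Without either input library the H3K27me3 call at T was lost, with an adjusted p of 0.27. The promoter of Nanos2 holds no CG. Its window had 0.58 and 0.33 RPM in the H3K4me3 libraries, against 0.27 and 0.69 RPM in the inputs, and the log2 difference of -0.02 (SE 0.34) did not pass the limma test (adjusted p = 0.96). Prm2, a protamine of sperm chromatin, had no RNA read and 2 CG. Its window had 0.193 and 0.0554 RPM in the H3K4me3 libraries, against 0.46 and 0.35 RPM in the inputs, with a log2 difference of -0.54 (SE 0.28) that did not pass the limma test (adjusted p = 0.074). Olfr401, an olfactory receptor gene, had no RNA read and no CG in these 250 bases. Its window had 3.21 and 2.45 RPM of H3K9me3, against 0.35 and 0.40 RPM in the ThruPLEX inputs, higher by 1.92 on the log2 scale (SE 0.30, limma adjusted p = 0.00013). A CCAAT box was found in all of them but Prm2, and TATAAA in Nanos2, Prm2 and Olfr401, on either strand. GGGCGG, the core of the Sp1 motif, was found in Ddx4, T and Prm2.

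RNA was spread unevenly over the genes. No read in either library was found for 4427 genes, and 2947 had a read but lay under 0.1 RPM. A further 3763 genes lay between 0.1 and 1 RPM, 4819 between 1 and 10 RPM, 7382 between 10 and 100 RPM and 1729 at 100 RPM or above. The 4427 genes with no read include 304 of 376 Y genes and all 10 mitochondrial genes. Those 10 had no read in any chromatin library either, and the reason was not tested. The 1729 genes of the highest class held 56.0% and 56.1% of the RNA reads in genes, and the 11137 genes under 1 RPM had a median of 0.026 and 0.0225 RPM. Among the genes of highest mean log2 RPM were Eef1a1 and Eef2 (translation elongation factors), Usp10 (a deubiquitinase), Hsp90ab1 (a chaperone), Ubb (a ubiquitin gene), Rpl4 (a ribosomal protein), 3110043O21Rik (C9orf72 in RefSeq), Gm8841 and Rpsa-ps10. Eef1a1 had 3588 and 3656 RPM, and Usp10 3173 and 3253 RPM. Rpsa-ps10 is annotated as a pseudogene, which can share reads with its parent gene, and Gm8841 had no match in the reference. H3K4me3 was called over input at 8 of these 9 windows, with log2 differences from 0.78 to 4.82, and Gm8841 was the exception. Over all windows the share called was 63.1%, and 8 of 9 is close to the share of the highest RNA class, given in the next paragraph. The call at Rpsa-ps10 (log2 difference 0.78, SE 0.36, limma adjusted p = 0.040) was lost without any of the 4 libraries, with log2 differences from 0.70 to 0.85 and adjusted p from 0.074 to 0.29, and it was also lost with voom on reads (0.10) and on the deposited values (0.065). The 2 RNA libraries differed most, among genes of at least 10 RPM, at Hist1h1c (24.6 and 17.5 RPM), the pseudogene Gm10222 (310.3 and 224.5 RPM), Anxa2 (9.41 and 13.0 RPM) and B3galtl (8.71 and 11.6 RPM). The median absolute log2 difference between the libraries was 0.79 in the class under 0.1 RPM, 0.14 between 1 and 10 RPM and 0.032 at 100 RPM or above, so low levels are known less well.

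Across the RNA classes, H3K4me3 went from rare to nearly general and then slightly down. H3K4me3 was higher than input at 15265 of 24196 windows tested (63.1%, limma adjusted p under 0.05) and lower at 2394 (9.89%). The share of windows called higher was 9.95% among genes with no RNA read and 30.0% under 0.1 RPM. It was 53.5% between 0.1 and 1 RPM, 79.1% between 1 and 10 RPM, 92.6% between 10 and 100 RPM and 89.5% at 100 RPM or above. With the median ratio of genes without an RNA read set to 0, whose medians were -0.24 and -0.35 (log2) before, the counts were 15567 higher and 454 lower. The median window had 0.193 and 0.111 RPM of H3K4me3 among genes with no RNA read, 1.54 and 2.00 RPM between 0.1 and 1 RPM of RNA, 11.6 and 13.8 RPM between 1 and 10 RPM, and 20.2 and 22.4 RPM at 100 RPM or above. Input windows varied much less, from 0.365 and 0.347 RPM in the class without a read to 0.547 and 0.625 RPM in the highest. In both libraries the level changed most between the classes under 0.1 RPM and above 1 RPM, and little among the higher classes.

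**Figure D1:**
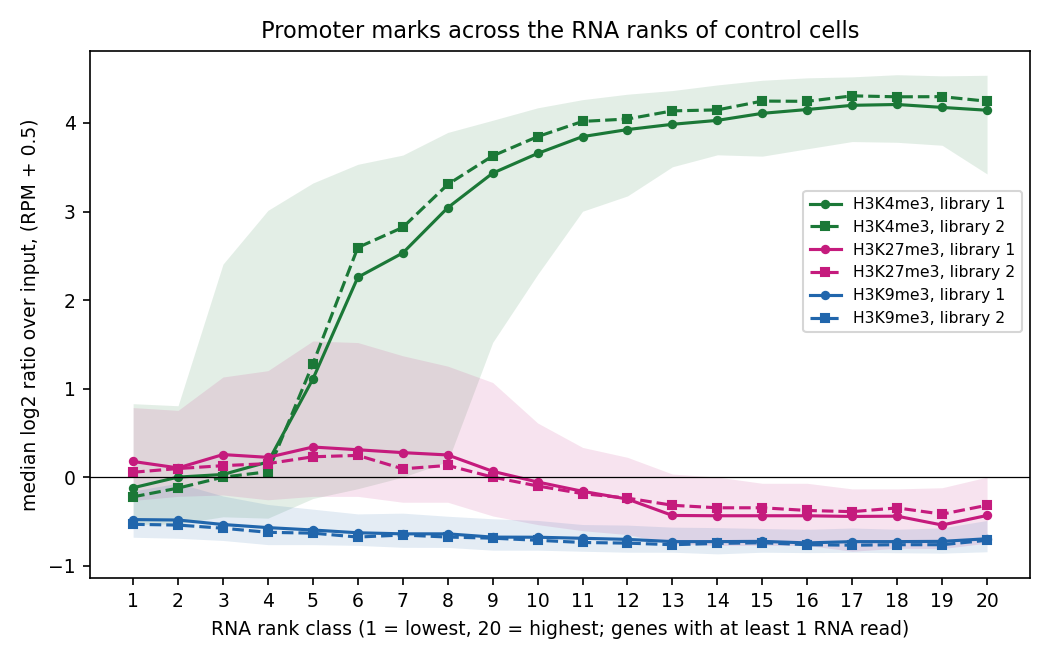
Median log2 ratio over input of each mark in 20 equal rank classes of the 20640 genes with an RNA read, lowest RNA at the left, with each library as a line and shading between the quartiles of library 1. H3K4me3 climbed between rank classes 4 and 9, from 0.17 to 3.43 in library 1, and then flattened near 4, while H3K27me3 was highest in classes 5 and 6 and H3K9me3 stayed below 0 in all 20.

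H3K27me3 followed RNA in another shape, with its largest share at low but detectable RNA. It was higher than input at 3228 of 24252 windows (13.3%) and lower at 1211 (4.99%). The share called higher was 10.8% among genes with no RNA read, 20.9% under 0.1 RPM, 28.4% between 0.1 and 1 RPM, 18.4% between 1 and 10 RPM, 3.27% between 10 and 100 RPM and 3.40% at 100 RPM or above. Without input replicate 1 or input replicate 2 no window passed the limma test, although 2456 and 2619 were higher at an unadjusted p under 0.05. With windows of no read kept in the fit the count was 1879. H3K9me3 was higher than its own input at 1513 of 24380 windows (6.21%), and lower at 19804 (81.2%), and the windows of the joined genes held 0.43% of the mapped reads in both H3K9me3 libraries, against 0.98% and 1.03% in its inputs. The share called higher was 22.5% among genes with no RNA read, 7.99% under 0.1 RPM, 4.86% between 0.1 and 1 RPM, 2.39% between 1 and 10 RPM, 0.681% between 10 and 100 RPM and 1.64% at 100 RPM or above. When the fit kept the 1316 windows that averaged 0.5 RPM or more, 816 were called.

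For the rest of the account, windows were put in classes by the log2 ratio of antibody to input libraries of equal number, after adding 0.5 RPM, in both pairs. H3K4me3 needed a ratio of at least 1.5 and was met by 14526 windows (57.9%). H3K27me3 needed 1 and was met by 2474 (9.87%), and H3K9me3 needed 1 and was met by 492 (1.96%). The classes are H3K4me3 only (12584 genes, 50.2%), both marks (1942, 7.75%), H3K27me3 only (532, 2.12%) and neither mark (10009, 39.9%). Windows with no read in any chromatin library, which were not measured, fall in the class of neither mark. They were 337 of the 4427 genes with no RNA read and 19 of the 1729 genes at 100 RPM or above. Every window of a class was also called by limma for that mark. Read across RNA, H3K4me3 only took 2.78% of the genes with no read and 89.3% of those between 10 and 100 RPM. Both marks took 3.98% of the genes with no read, 11.9% under 0.1 RPM, 19.1% between 0.1 and 1 RPM, 11.8% between 1 and 10 RPM and 0.925% at 100 RPM or above. Among the 1729 genes of the highest class, 13.5% were in the class with neither mark, against 8.60% between 10 and 100 RPM.

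**Figure D2:**
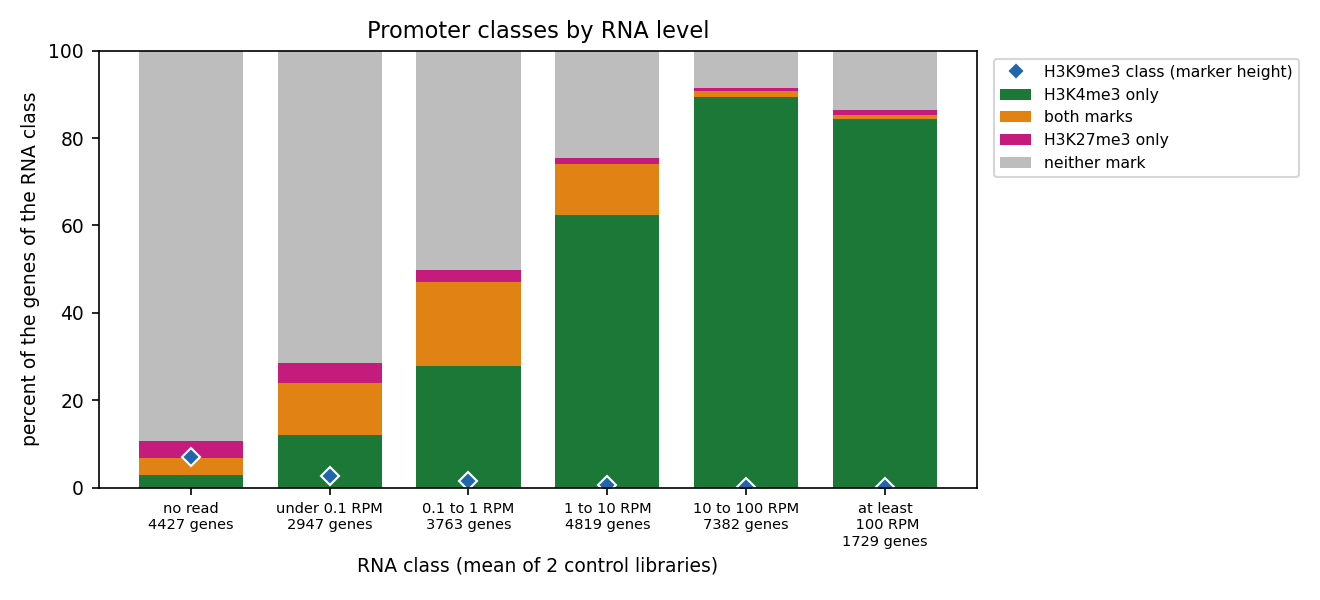
Percent of genes in each promoter class (stacked bars) and in the H3K9me3 class (diamonds) for 6 classes of RNA level, with the number of genes under each bar. H3K4me3 only covers 2.78% of genes with no read and 89.3% of those at 10 to 100 RPM, both marks peak at 19.1% between 0.1 and 1 RPM, and H3K9me3 is highest, 7.09%, where there is no read.

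Read the other way, the promoter classes differed in RNA by a wide margin. Genes with H3K4me3 only had a median of 20.5 and 20.4 RPM of RNA in the 2 libraries, and their lower and upper quartiles were 4.58 and 53.8 RPM in library 1. Genes with both marks had a median of 0.468 and 0.507 RPM, those with H3K27me3 only 0.052 and 0.0563 RPM, and those with neither mark 0.026 and 0.0225 RPM. The H3K9me3 class had a median of 0 in both libraries. At least 1 RPM of RNA was reached by 87.8% of genes with H3K4me3 only, 35.9% with both marks, 23.7% with H3K27me3 only, 20.5% with neither mark and 8.94% with H3K9me3. The lower quartile of genes with H3K4me3 only lay above the upper quartile of each other class in both libraries. The log2 ratio of the medians of H3K4me3 only over both marks was 5.39 and stayed between 5.11 and 5.59 under the other settings tried. Over all 25067 genes, RNA and the ratio of H3K4me3 over input had a Spearman rho of 0.669 and 0.668 in the libraries of number 1 and 2. The rho was -0.358 and -0.319 for H3K27me3 and -0.417 and -0.405 for H3K9me3. These are descriptions over genes that share the same libraries and depth. Input reads alone had a rho with RNA of 0.260 and 0.318 in the NEBNext libraries and 0.260 and 0.208 in the ThruPLEX ones. Among the 13930 genes of at least 1 RPM the rho of H3K4me3 was 0.323 and 0.315, and among the 9111 genes of at least 10 RPM it was 0.103 and 0.094. Within the class of both marks, RNA had a rho of 0.208 and 0.233 with H3K4me3 and of -0.211 and -0.201 with H3K27me3 (1942 genes).

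**Figure D3:**
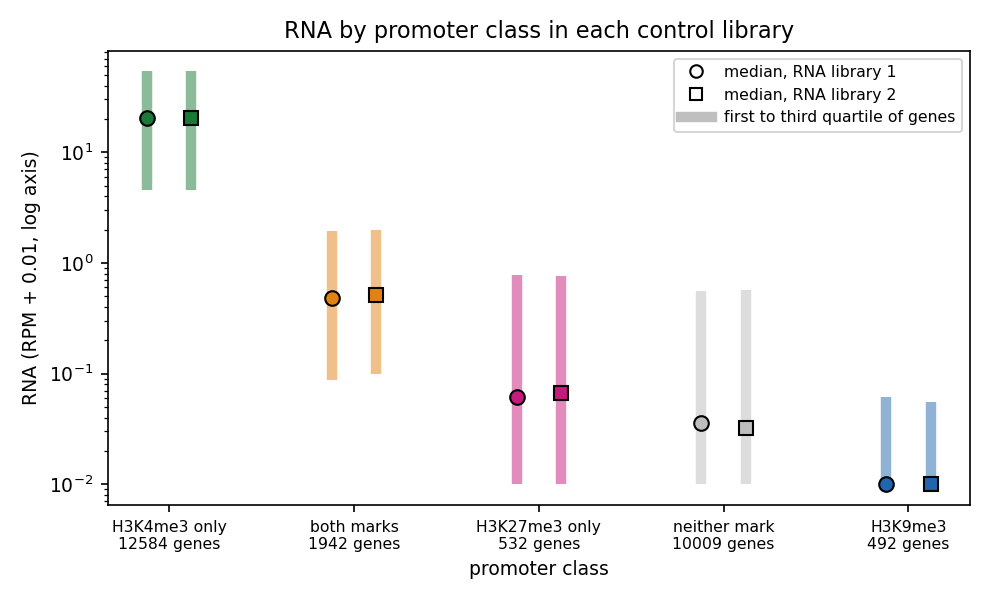
RNA (RPM + 0.01, log axis) of the genes in each promoter class and in the H3K9me3 class, with the median of each control RNA library (circle, library 1; square, library 2) and a bar between the lower and upper quartiles. Medians are 20.5 and 20.4 RPM for H3K4me3 only, 0.468 and 0.507 for both marks, 0.052 and 0.0563 for H3K27me3 only, 0.026 and 0.0225 for neither mark and 0 for H3K9me3.

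The promoter sequence moved with both RNA and the marks. RefSeq promoters of 300 bases, from 250 before to 50 after the start, were matched to 16009 of the 25067 genes. The median number of CG dinucleotides per promoter was 2 for genes with no RNA read, 4 under 0.1 RPM, 7 between 0.1 and 1 RPM, 16 between 1 and 10 RPM, 22 between 10 and 100 RPM and 25 at 100 RPM or above. By promoter class it was 22 for H3K4me3 only, 16 for both marks, 5 for H3K27me3 only, 2 for neither mark and 1 for H3K9me3. Where a promoter held 20 CG or more, H3K4me3 was present nearly regardless of RNA, at 92.3% of 39 promoters of genes with no read and 99.8% of 857 at 100 RPM or above. Where a promoter held 0 to 4 CG, H3K4me3 was present at 22 of 2009 promoters with no read, 16.1% of 411 between 1 and 10 RPM, 33.3% of 177 between 10 and 100 RPM and 12.9% of 31 at 100 RPM or above. The level of H3K4me3 at these CG-rich promoters still differed, with medians of 10.4 and 13.3 RPM at no read and 22.5 and 24.9 RPM at 100 RPM or above. H3K27me3 differed as well. With 20 CG or more, 61.5% of promoters with no read carried both marks, against 55.5% under 0.1 RPM, 48.3% between 0.1 and 1 RPM, 180 of 1289 between 1 and 10 RPM, 1.11% between 10 and 100 RPM and 0.233% at 100 RPM or above. Within classes of CG count, RNA and the H3K4me3 ratio had a rho of 0.186 and 0.195 at 0 to 4 CG (4304 promoters), 0.469 and 0.471 at 5 to 9 (2191), 0.460 and 0.443 at 10 to 19 (3475) and 0.282 and 0.258 at 20 or more (6039). Motifs were searched as exact letters on both strands. TATAAA was in 34.3% of promoters of genes with no read and 5.55% of those between 10 and 100 RPM, against 13.0% of all 16009. GGGCGG was in 6.38% and 69.8% of the same groups, against 48.2% of all. CCAAT was in 40.9% and 40.4% of them, against 38.9% of all. A match is a description of the letters and not of binding.

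**Figure D4:**
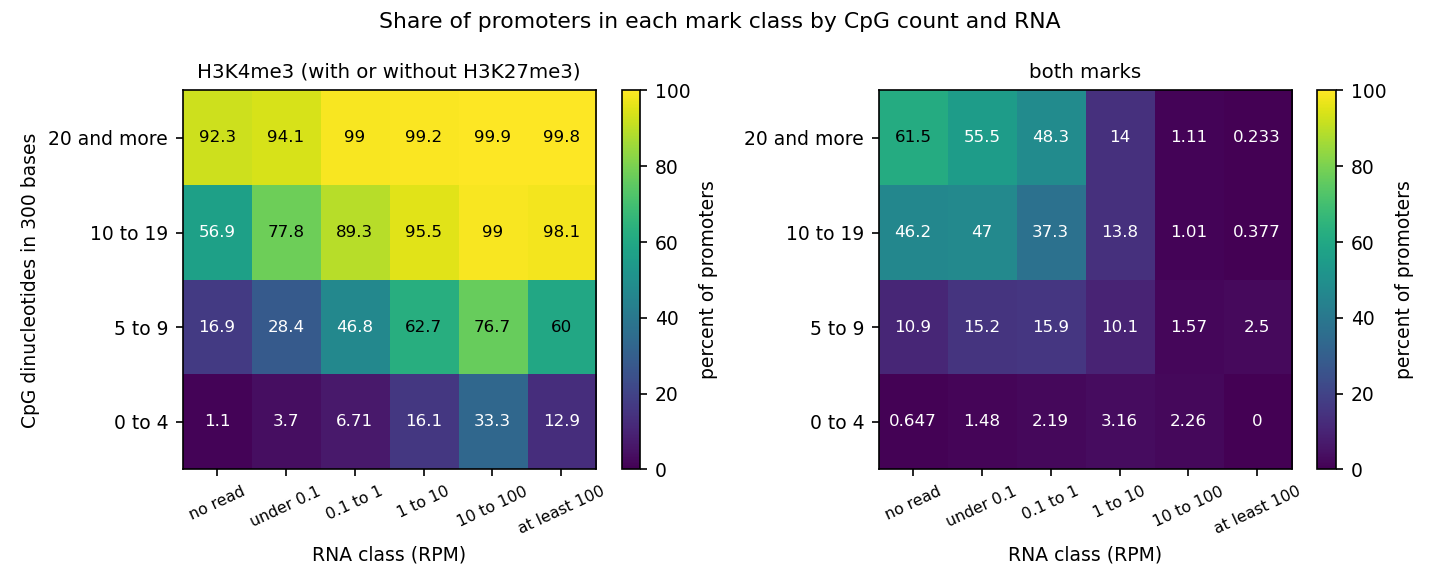
Percent of RefSeq promoters with H3K4me3 (left) and with both marks (right), by the number of CpG dinucleotides in 300 bases (rows) and the RNA class of the gene (columns), with the percent printed in each cell. In the top row H3K4me3 stays between 92.3% and 99.9% across all RNA classes, while both marks go from 61.5% at no read to 0.233% at 100 RPM or above.

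Germ line genes were mostly in the state of high RNA and H3K4me3 only. All 11 germ cell markers reached 1 RPM, against 13930 of all 25067 genes. Of the 11, 10 were in the class of H3K4me3 only, against 50.2% of all genes. Dazl, a germline RNA-binding protein, had 787 and 738 RPM of RNA, and its window had 27.8 and 29.0 RPM of H3K4me3, against 0.64 and 0.76 RPM in the inputs. Nanos3, an RNA-binding protein related to Nanos2, was the marker outside the class, with 34.0 and 37.4 RPM of RNA and 3.09 and 2.22 RPM of H3K4me3, against 0.091 and 0.83 RPM in the inputs. It fell short of the class ratio but was called by limma (log2 difference 1.82, SE 0.37, adjusted p = 1.7e-06). The piRNA pathway, which silences transposons in germ cells, had 20 of 21 measured members at 1 RPM or above, with a median of 91.7 and 85.5 RPM, and 19 of the 21 had H3K4me3 only. Its highest members were Piwil2 (469 and 456 RPM) and Mov10l1 (447 and 444 RPM), a Piwi protein and a piRNA helicase. Its lowest were Piwil1 (9.98 and 10.3 RPM), a Piwi protein of later germ cells, and Tdrd6 (0.650 and 0.406 RPM), a Tudor protein of the chromatoid body. The window of Tdrd6 was in the class of both marks, with 13.2 and 18.7 RPM of H3K4me3 and 5.13 and 4.03 RPM of H3K27me3, against 0.27 and 0.76 RPM in the inputs. Tdrd7 had 78.1 and 76.4 RPM of RNA without either mark by the class rule, and was singled out after its values were seen.

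Among 31 genes of undifferentiated spermatogonia, 27 reached 1 RPM and 21 had H3K4me3 only, against 55.6% and 50.2% of all genes. The row named Fgfr2, a receptor for fibroblast growth factors, had the highest RNA of the list, with 674 and 693 RPM. That row spans chr7:130162451-133123350 (mm10) and starts 1004 bases from Ctbp2, so neither its RNA nor its H3K4me3 (25.5 and 31.2 RPM, against 0.182 and 0.486 RPM in the inputs) can be assigned to Fgfr2 alone. Lin28a, a regulator of let-7, had 199 RPM in both libraries. Besides Nanos2 and Nanos3, the windows without either mark were those of Itga6, a surface integrin (47.4 and 47.1 RPM of RNA), and Tspan8, a tetraspanin (2.31 and 2.07 RPM). The list also holds 6 genes with both marks, from Cdh1 (E-cadherin), with 7.85 and 8.65 RPM of RNA, down to T and Pdx1, with 0 and 0.0901 RPM for Pdx1. Of 16 genes of differentiating spermatogonia, 15 reached 1 RPM. Sox3, a transcription factor, had 184 and 194 RPM, and Kitl, the ligand of Kit, had 0.650 and 0.225 RPM, the lowest of the list. Stra8, the retinoic acid target that starts meiosis, had 141 and 122 RPM of RNA, and its window was in the class without either mark, with 0.869 and 1.16 RPM of H3K4me3, against 0.55 and 0.56 RPM in the inputs. Kit, the receptor of differentiating spermatogonia, had 56.0 and 49.2 RPM of RNA in the class of both marks. Stra8 and Kit were singled out after their values were seen.

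Genes of meiotic prophase had RNA in these cells. Of 28 measured, 27 reached 1 RPM, 21 reached 10 RPM and 26 had H3K4me3 only, against 55.6%, 36.3% and 50.2% of all genes. Stag3, a meiotic cohesin subunit, had 315 and 324 RPM of RNA and 12.3 and 18.0 RPM of H3K4me3, against 0.55 and 0.90 RPM in the inputs. Tex15 had 277 and 263 RPM, and Sycp3, a component of the synaptonemal complex, 168 and 151 RPM. The lowest of the list were Prdm9, the enzyme that marks recombination hotspots, with 5.49 and 4.55 RPM, and Ccna1, cyclin A1, with 0.650 and 0.518 RPM. Both windows carried H3K4me3, with 24.2 and 26.2 RPM for Prdm9 and 15.0 and 22.1 RPM for Ccna1. The windows without either mark by the class rule were those of Spo11, the enzyme of meiotic double-strand breaks, and Rad21l, a meiotic cohesin. Spo11 was nevertheless called by limma (log2 difference 1.61, SE 0.38, adjusted p = 3.2e-05). Genes of spermatids and sperm had low RNA. Of 34 measured, 12 reached 1 RPM, against 55.6% of all genes. H3K4me3 only was found at 14, against 50.2% of all, neither mark at 19, against 39.9%, and both marks at 1. H3K4me3 was called by limma at 16 of the 34, against 63.1% of all windows. The highest were Odf2 (40.2 and 37.7 RPM), a centrosome and sperm tail protein, and Izumo1 (29.6 and 31.3 RPM), the sperm fusion protein. Prm1, Prm2, Prm3 and Tnp2, which replace histones in sperm, had no read in either library. The median number of CG in their promoters was 6 (27 sequences), against 19 for meiotic prophase (21) and 19 for the piRNA pathway (18).

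Embryonic regulators mostly carried both marks at low RNA. Of 93 measured embryonic transcription factors, 57 had both marks, 25 had H3K4me3 only, 10 had H3K27me3 only and 1 had neither, and 29 reached 1 RPM. H3K27me3 was called at 77 of the 93 windows, against 13.3% of all windows, and H3K4me3 at 88, against 63.1%. No H3K27me3 call of this or any other list was left without either input library, as given above. The median RNA of the list was 0.260 and 0.293 RPM, against 2.11 and 2.16 RPM over all genes. The highest were Sox3 and Neurog3, a factor of differentiating spermatogonia, with 28.6 and 24.2 RPM, both with H3K4me3 only. Cdx4, a posterior homeobox gene, had no RNA read, and its window had 2.12 and 4.16 RPM of H3K4me3 and 3.22 and 2.29 RPM of H3K27me3, against 0.36 and 0.56 RPM in the inputs. Of 28 Hox genes, 12 had both marks and 12 reached 1 RPM, against 7.75% and 55.6% of all genes. The 6 highest in RNA were all of the Hoxb cluster, led by Hoxb8 with 55.8 and 53.0 RPM and Hoxb4 with 22.3 and 19.4 RPM. The lowest was Hoxd12, with no read, and Hoxa11, Hoxc11, Hoxc12 and Hoxd11 were tied above it with 0 and 0.0451 RPM. At Hoxb8 the window had 7.43 and 5.93 RPM of H3K4me3, against 0.091 and 0.49 RPM in the inputs. At Hoxd12 it had 11.8 and 5.86 RPM of H3K27me3, against 0.64 and 0.49 RPM. Of 22 pluripotency genes, 13 reached 1 RPM and 13 had H3K4me3 only, near the shares over all genes of 55.6% and 50.2%. Pou5f1 (Oct4) had 54.8 and 51.5 RPM and Klf4 36.8 and 41.8 RPM, while Fgf4 had no read and both marks, and Nr0b1 had 0 and 0.0225 RPM and both marks. Nanog, singled out after its values were seen, had 1.12 and 0.879 RPM of RNA and 0.193 and 0.0554 RPM of H3K4me3.

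Genes of the cell cycle, ribosome and oxidative phosphorylation were almost all in the class of H3K4me3 only, which held 50.2% of all genes. All 27 cell cycle genes were in it, from Top2a (283 and 307 RPM), a topoisomerase, to Ccne2 (12.7 and 12.1 RPM), a cyclin of the G1 to S transition. Of 75 ribosomal protein genes, all reached 10 RPM and 73 had H3K4me3 only. The other two were Rps2 and Rps10, with 1190 and 1221 RPM and with 216 and 230 RPM of RNA. By limma H3K4me3 was called at 74 of the 75, against 63.1% of all windows. Rps2 was the exception, so Rps10 missed the class ratio but had a call. Of 70 genes of oxidative phosphorylation, 68 reached 1 RPM, against 55.6% of all genes, and 67 had H3K4me3 only. Atp5b, an ATP synthase subunit, had 957 and 947 RPM, and Cox8b, a muscle form of a cytochrome oxidase subunit, had none. Glycolysis had 17 of 18 genes at 1 RPM or above, and 14 had H3K4me3 only, 3 neither mark and 1 both. Pkm (pyruvate kinase) had 576 and 620 RPM and Gapdh 434 and 451 RPM, while Eno2, the neuronal enolase, had 0.858 and 0.811 RPM with both marks. The enzymes of the marks were expressed. Kmt2b, listed under its older symbol Wbp7, had 142 and 150 RPM of RNA, and its window had 25.6 and 26.5 RPM of H3K4me3, against 0.46 and 0.62 RPM in the inputs (log2 difference 4.68, SE 0.24, limma adjusted p = 9.3e-86). All 18 measured members of the H3K4 methyltransferase complexes reached 1 RPM, led by Wdr5 (250 and 251 RPM) and Setd1a (235 and 248 RPM), and Setd1b was the lowest (6.34 and 6.31 RPM). Of 29 Polycomb subunits, 28 reached 1 RPM. Rbbp4 had 325 and 308 RPM, and Phf19, an accessory subunit of PRC2, had 0.780 and 0.744 RPM and was itself in the class of both marks. All 12 measured genes of H3K9 methylation reached 10 RPM, with Trim28 at 481 and 492 RPM and Ehmt2 at 489 and 478 RPM.

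The replication-dependent histone genes had the mark with little RNA counted. Of 67, 60 had H3K4me3 only and 54 reached 1 RPM, against 50.2% and 55.6% of all genes, but only Hist1h1c reached 10 RPM. The median was 2.65 and 2.57 RPM. Hist4h4 had 0.052 and 0.0451 RPM of RNA, and its window had 30.8 and 31.1 RPM of H3K4me3, against 1 and 1.32 RPM in the inputs. Most mRNAs of these genes end in a stem-loop and carry no poly(A) tail, and whether the RNA was selected for poly(A) is not given in the sources used here. Copies of these genes are nearly identical, so the split of reads among them is uncertain. The chemosensory receptor families stood at the other end. Of 1074 olfactory receptor genes, 3 reached 1 RPM, and their summed RNA was 12.9 and 11.5 RPM. H3K9me3 was called at 365 of the 1072 windows tested (34.0%), against 6.21% of all. H3K4me3 was called at 22 (2.05%), against 63.1% of all, and H3K27me3 at 33 (3.08%), against 13.3%. Of 313 vomeronasal receptor genes, 6 reached 1 RPM, and H3K9me3 was called at 56.9% of the windows tested. The row named Vmn1r4 went against its family, with 18.8 and 18.9 RPM of RNA. It had 18.4 and 23.6 RPM of H3K4me3, against 0.82 and 0.76 RPM in the inputs. That row spans chr6:56924022-56958100 (mm10) and starts 90 bases from Nt5c3. Neither its RNA nor its H3K4me3 can therefore be assigned to Vmn1r4 alone. The zinc finger (Zfp) genes, many of which sit in clusters of their own, were expressed. Of 353, 321 reached 1 RPM and 277 had H3K4me3 only, against 55.6% and 50.2% of all genes.

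**Figure D5:**
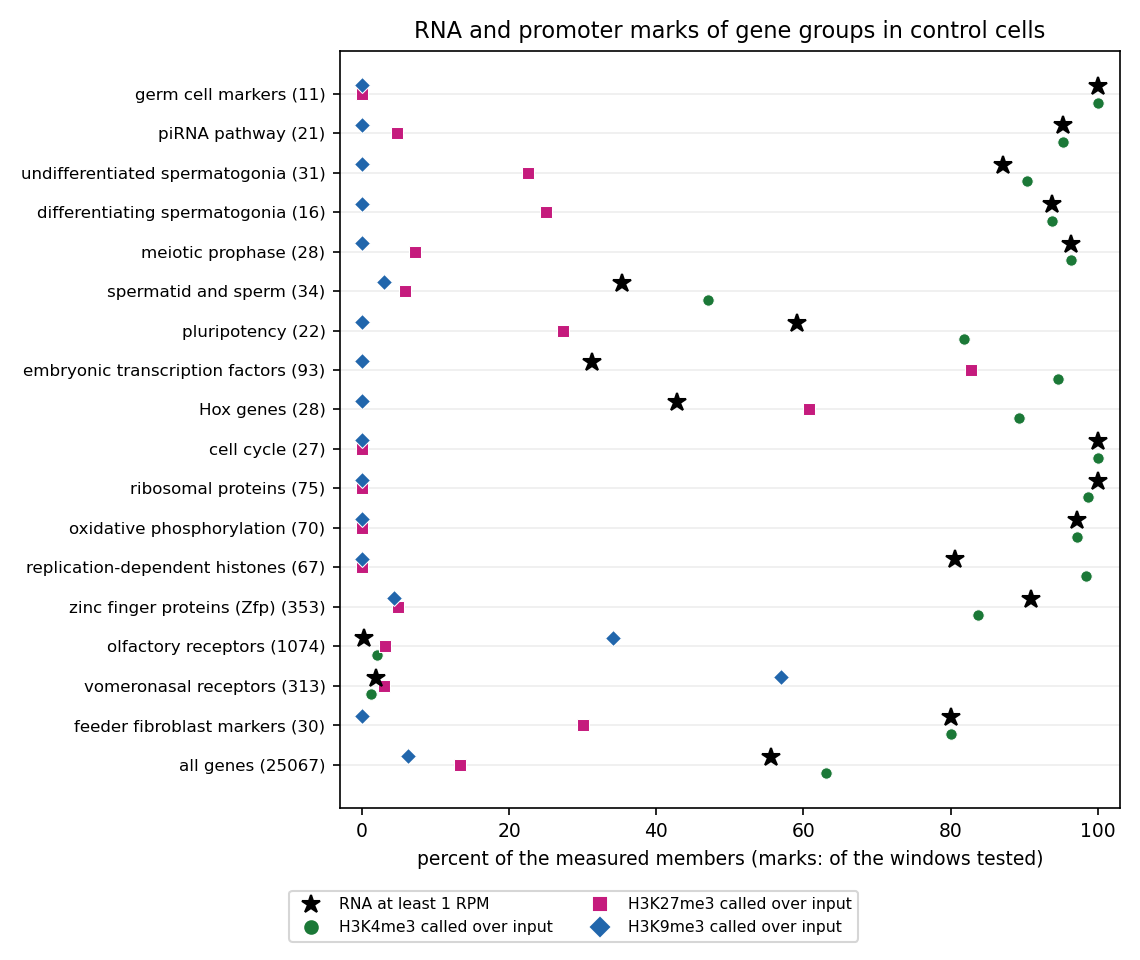
Percent of the measured members of each gene list with at least 1 RPM of RNA (star), and percent of the windows tested with a limma call over input for H3K4me3 (circle), H3K27me3 (square) and H3K9me3 (diamond), with the number of members in parentheses and markers set apart vertically for legibility. Embryonic transcription factors and Hox genes have H3K27me3 calls well above the 13.3% of all genes, and olfactory and vomeronasal receptors have H3K9me3 calls of 34.0% and 56.9%, against 6.21% of all.

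Some genes had RNA without H3K4me3 at their window. Each gene is counted over 1 window, so H3K4me3 at a start elsewhere in the gene was not measured. A ratio under 0.5 in both libraries was found for 1665 of the 13930 genes of at least 1 RPM and for 173 of the 1729 of at least 100 RPM. Of the 142 of these 173 with an annotated type, 67 (47.2%) were pseudogenes, against 18 of 1464 (1.23%) among the genes of at least 100 RPM with H3K4me3. Of the 1665, 127 had no read in any chromatin library. Of the 173, 19 had none and 8 lay on the Y chromosome. The 6 highest were Gm8841 (1746 and 1765 RPM), Rps2, Hsp90aa1 (1116 and 1060 RPM), a chaperone, AC160968.2 (1117 and 1001 RPM), Rbmy1a1 (1092 and 1010 RPM), a Y-linked RNA-binding protein of multiple copies, and the pseudogene Gm10123 (934 and 898 RPM). At Rps2 the window had 0.386 and 0.388 RPM of H3K4me3, against 0.73 and 0.42 RPM in the inputs, a log2 difference of -0.26 (SE 0.34) that did not pass the limma test (adjusted p = 0.49). At Hsp90aa1 it had 0.193 and 0.333 RPM, against 0.27 and 0.49 RPM in the inputs (log2 difference -0.20, SE 0.30, limma adjusted p = 0.55). AC160968.2 and Rbmy1a1 had no read in any of the 10 chromatin libraries. Members of the lists above were among these genes too, such as Pcgf5 of the Polycomb subunits, with 124 RPM of RNA in both libraries, and Dpy30 of the H3K4 methyltransferase complexes, with 46.8 and 49.3 RPM, both singled out after their values were seen.

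The reverse, H3K4me3 without an RNA read, was found at 299 windows, of which 176 also had H3K27me3. Of the 123 with H3K4me3 only, 31 (25.2%) started within 1000 bases of the start of a gene of at least 1 RPM, against 6 of 176 (3.41%) with no read and both marks and 14 of 4128 (0.339%) with neither RNA read nor H3K4me3. Among genes of at least 1 RPM with H3K4me3 the count was 2050 of 11753 (17.4%). Of the expressed genes named above, Usp10, Ubb, 3110043O21Rik, Rpl4, Lin28a, Sox3, Stag3, Fn1, Rbbp4, Ehmt2, Setd1b and Vmn1r4 also start within 1000 bases of another gene. Their H3K4me3 cannot be assigned to 1 start alone. Rps2 and Hoxb4 start as close to another gene, but neither had an H3K4me3 call by limma. Among the windows of highest H3K4me3 without RNA, Mir219-1, the gene of a microRNA, had 25.5 and 32.0 RPM, against 0.46 and 0.69 RPM in the inputs, and its start is 390 bases from that of Ring1. A930012O16Rik had 26.5 and 29.2 RPM, against 0.46 and 0.83 RPM, and starts 873 bases from Gpd2. 1700018A14Rik had 23.2 and 27.8 RPM, against 0.73 and 0.69 RPM, and Gm20652 had 25.2 and 25.3 RPM, against 0.64 and 0.42 RPM, and no other start lay within 1000 bases of these. The other two, Gm10800 and Gm10801, had more reads in the inputs than in the H3K4me3 libraries, with 61.0 and 64.5 RPM against 113.1 and 96.5 RPM at Gm10800, and were in the class without either mark.

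H3K27me3 at genes of at least 10 RPM was seen at 192 of 9111 windows. The share was 2.10% between 10 and 100 RPM and 2.14% at 100 RPM or above, against 9.87% of all windows. The 6 of highest ratio were Dgkz, Ptpru, Tbc1d1, Pcdh15, Pfdn4 and Col6a6, and all of them also had H3K4me3. Dgkz, a diacylglycerol kinase, had 86.5 and 85.6 RPM of RNA and 13.3 and 5.95 RPM of H3K27me3, against 0.46 and 0.35 RPM in the inputs (log2 difference 3.39, SE 0.42, limma adjusted p = 1.1e-12). Pcdh15, a protocadherin, had 33.6 and 32.7 RPM of RNA, 21.7 RPM of H3K4me3 in both libraries, and 6.43 and 5.31 RPM of H3K27me3, against 0.18 and 0.62 RPM in the inputs. The other four had between 10.8 and 43.0 RPM of RNA. These calls too were lost without either input library, with an adjusted p of 0.27 in each case and log2 differences from 2.50 to 3.48. H3K9me3 at genes of at least 10 RPM was rarer, with 15 of the 492 windows of its class (3.05%). Of all 25067 genes, 36.3% reached 10 RPM. The 6 of highest ratio were Gm884, Neto2, Zcwpw2, Phf21a, Rpl21-ps14 and 1700120G11Rik, and none of their windows had H3K4me3. Phf21a, a subunit of a histone demethylase complex, had 60.8 and 61.7 RPM of RNA and 2.58 and 1.99 RPM of H3K9me3, against 0.25 and 0.45 RPM in the inputs (log2 difference 1.71, SE 0.28, limma adjusted p = 0.00018). Neto2, an accessory subunit of kainate receptors, had 26.7 and 24.9 RPM of RNA and 2.97 and 1.62 RPM of H3K9me3, against 0.39 and 0.24 RPM in the inputs (log2 difference 1.74, SE 0.31, limma adjusted p = 0.00025). Each of these genes is counted over 1 window, and starts elsewhere in the gene were not measured.

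The sex chromosomes differed from the autosomes in level. Expressed genes of the X chromosome (575 of 1056) had a median RNA of 12.6 and 12.4 RPM, against 21.4 and 21.3 RPM for the 13337 expressed autosomal genes. H3K4me3 was present at 72.3% of them, against 85.0% on the autosomes, with medians of 7.34 and 8.98 RPM against 17.6 and 20.1 RPM. Input was lower on the X too, with medians of 0.274 and 0.278 RPM, against 0.547 and 0.625 RPM on the autosomes. Of all 1056 X genes, 84 had no read in any chromatin library, against 305 of 23625 autosomal genes, and such windows count as without the mark. How much of the H3K4me3 difference goes with input or with such windows was not tested. Of 376 Y genes, 18 reached 1 RPM and 249 had no read in any chromatin library.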

How the data were processed

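RNA was measured in 2 control libraries and chromatin in 10, of the 20 in the series. Both tables hold log2 RPM as deposited, computed by the authors relative to the mapped reads of each library on build mm10. Per the submitters' processing notes, the tools were TopHat2 2.0.14, Bowtie 1.1.1, Trim Galore 0.4.0 and CASAVA 1.8. Their roles, the chromatin window, the counting tool and whether strand was used are not given in the sources used here, so reads of overlapping, antisense or nearly identical genes cannot be told apart. The lowest value of each library stood at 0.9 of the value of 1 read and was read as 0, and the others gave whole reads within 0.1.

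Antibody and input libraries were compared with limma 3.58.1 (R 4.3.3) on log2(RPM + 0.5), with a mean-variance trend. Tests were two-sided, and p-values were adjusted by Benjamini and Hochberg's method across the windows in each fit. Windows without a read in the 4 libraries were left out, since a test on simulated data recovered no change with them in, and the fit with them is given as an alternative chosen after seeing the data. Genes were matched to RefSeq GRCm38.p6 by symbol and position (20001), by an older symbol (2295) or not at all (2771). Transcript lengths were not used here. Medians and correlations came from pandas 2.3.3 and SciPy 1.17.1.

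Named genes are the 4 markers, Kmt2b, the 10 highest in RNA (of which 1 is not reported here), the 6 highest in RNA without H3K4me3, in H3K4me3 without RNA, and in H3K27me3 and H3K9me3 at 10 RPM or more, the 4 that differed most between RNA libraries, and the highest and lowest of each gene list. The genes, lists and tests were chosen with earlier results of these data known.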

Additional observations from a re-analysis of the deposited data

How the results depend on the processing

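With 2 libraries a group, leaving 1 out moved the H3K4me3 calls between 14608 and 15241, the H3K9me3 calls between 1144 and 1729 and the H3K27me3 calls between 0 and 3728. The lone library left in a group is then assumed to vary like the others. Calls also moved for H3K27me3 with windows of no read kept in the fit (1879, chosen after seeing the data) and for H3K9me3 in windows of at least 0.5 RPM (816, where fewer windows were tested). Deviations of same-numbered libraries correlated between -0.077 and 0.011. Most windows hold few reads in the input and H3K27me3 libraries, so these values cannot tell whether equal numbers mark the same cell line. No replicate block was used in the main fit. With a replicate block the H3K4me3, H3K27me3 and H3K9me3 counts were 15288, 3175 and 1564.

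The rho of RNA with H3K4me3 was 0.679 with both libraries averaged, 0.667 and 0.683 with pseudocounts of 0.1 and 1 RPM, 0.692 without division by input, 0.682 without genes within 1000 bases of another start and 0.670 to 0.678 with a library or number left out. For H3K27me3 it was -0.40, and -0.147 without division by input, -0.365 without close starts and -0.402 to -0.319 with a library or number left out. For H3K9me3 it was -0.452, and -0.477 and -0.442 with those pseudocounts, -0.359 without division by input, -0.464 without close starts and -0.449 to -0.407 with a library or number left out. The log2 ratio of median RNA was 5.21 and 5.59 with class thresholds 0.5 lower and higher, 5.24 and 5.55 with those pseudocounts, and 5.11 to 5.45 with a library or number left out, lowest without replicate 2. The causes were not tested. No result reversed. Of 569 values for single genes, 38 lost a call and 1 gained one. RPM per kb could not be computed without transcript lengths.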

Other observations

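Some germ line genes with H3K4me3 and RNA had more H3K9me3 reads at their windows than most expressed genes, without a call over input. The measure is how many windows lay above the upper quartile of all genes in both H3K9me3 libraries (0.146 and 0.118 RPM). Of the 21 piRNA pathway genes 8 did so, of the 28 meiotic prophase genes 8, and of the 11 germ cell markers 4. Of the other germ line lists, 0 of the 31 genes of undifferentiated spermatogonia, 1 of the 16 of differentiating spermatogonia and 7 of the 34 of spermatids and sperm did so. Ddx4 and Mael are on more than 1 of these lists. Of the 11055 genes with H3K4me3 only and at least 1 RPM, 294 (2.66%) did so, and of all genes 15.0%. Of the 27 cell cycle genes 2 did so, and of the 75 ribosomal protein genes 0. Mov10l1 had 0.535 and 0.454 RPM of H3K9me3, against 0.41 and 0.50 RPM in the ThruPLEX inputs, and the median expressed gene with H3K4me3 only had 0.0487 and 0.0592 RPM. Fkbp6, a chaperone of the piRNA pathway, had 0.462 and 0.632 RPM, and Tex12, of the synaptonemal complex, 0.852 and 0.711 RPM. No H3K9me3 call over input was made in these 3 lists by limma. The pattern was noticed after the values were seen. Feeder markers were present in the RNA, with 24 of 30 at 1 RPM or above, against 55.6% of all genes. Their summed level was 657 and 698 RPM, and their part in this pattern was not tested.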
